A study of Mus musculus with 6 samples.

Results

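The 9 genes described here encode transcription factors, RNA sensors, an effector and an RNA editing enzyme of the interferon response: Stat2, Irf9, Irf1, Irf3, Irf7, Ifih1, Ddx58, Isg15 and Adar. They were chosen by symbol, and all 9 were found among the 14546 genes that the authors list with PRO-seq values in muscle stem cells (MuSCs). PRO-seq sequences nascent RNA from engaged RNA polymerase, so its values report transcription and not the amount of stable RNA. The study compared 3 libraries of Ctrl MuSCs, with the genotype label Pax7CreERT/Suv4-20h1WT, with 3 libraries of Kmt5b sKO MuSCs, labelled Pax7CreERT/Suv4-20h1KO. Kmt5b, also called Suv4-20h1, encodes an enzyme that dimethylates histone H4 at lysine 20. Both groups carry a tamoxifen-inducible Cre driven by the Pax7 locus, which is active in MuSCs, on a C57BL/6 background. Per the methods, tamoxifen was given to adult mice, and MuSCs were purified from muscle and grown in culture, where they proliferated. The methods describe the replicates as biological, but the labels do not tie a library to an animal.

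Each gene has 2 measured regions. The TSS region is the first 400 nt of the listed isoform, where polymerase often pauses shortly after initiation, and its value is given in RPM, reads scaled so that the TSS regions of a library share 1 total. The gene body is the rest of the isoform, and its value is given in TPM, which is scaled to length. The pausing index is the TSS value divided by the gene body value. Each region is scaled to its own total, so an index of 1.0 does not mean equal polymerase density in both. The libraries held 926904 to 3246088 reads in TSS regions and 7425433 to 16249797 in gene bodies of the listed genes, and 1 TSS read was worth 0.189 to 0.660 RPM. Kmt5b itself was not lower in the libraries labelled Kmt5b sKO, with gene body values of 30.6, 35.4 and 38.5 TPM in Ctrl against 37.8, 35.0 and 42.6 TPM in Kmt5b sKO (limma, adjusted p = 0.71). In the TSS region Kmt5b had 93.7, 87.3 and 101.5 RPM in Ctrl against 120.0, 107.0 and 113.15 RPM in Kmt5b sKO. There all 3 Kmt5b sKO libraries were higher than all 3 Ctrl libraries (limma, adjusted p = 0.72). Transcription over the whole gene does not resolve the deleted exons, so these values do not check the genotype. MuSC markers summed to 1570 to 2790 TPM per library, led by Myod1, a myogenic transcription factor. Of 10 leukocyte markers, 6 (Ptprc, Adgre1, Csf1r, Tyrobp, Lyz2 and Cd52) are not among the listed genes, and the other 4 summed to 274 to 469 TPM, most of it at Cd68. Endothelial markers summed to at most 14.7 TPM and fibroblast markers to at most 10.1 TPM, and all of these sums overlapped between the groups. Markers of mature muscle fibres summed to 312, 408 and 189 TPM in Ctrl and to 537, 405 and 824 TPM in Kmt5b sKO, and their part in any difference below was not tested.

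Cells detect foreign or misplaced RNA with sensors such as MDA5, encoded by Ifih1, and RIG-I, encoded by Ddx58. Both signal through the adaptor MAVS to the kinases that activate IRF3 and IRF7, which switch on the type I interferon genes. Secreted interferon binds its receptor, JAK kinases phosphorylate STAT proteins, and STAT2 and IRF9 act in the complex ISGF3. ISGF3 binds the interferon-stimulated response element (ISRE) in promoters of target genes such as Isg15. The gamma-activated site (GAS) is the element of the interferon gamma route, and Irf1 is a classical gene of that route. ADAR edits adenosine to inosine in double-stranded RNA, which keeps a cell's own RNA from being taken for foreign by MDA5.

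The promoters are shown because these elements define the pathway's targets. Sequences are from RefSeq on GRCm38.p6, in windows from 250 bases before to 50 bases after each start site, written on the gene's strand. All 9 genes matched, with 13 windows. An ISRE was searched as GAAANNGAAA and as its reverse complement TTTCNNTTTC, and a GAS as TTCNNNGAA, which is its own reverse complement. Capitals mark the matches, and a run that differs from these letters by a base was not counted. Of the 13 windows, 4 held an ISRE match and 2 a GAS match, each in a different gene, where 3.45% of all 32544 windows of that length held an ISRE match and 8.33% a GAS match.
Isg15, the 250 bases before its start site, chr4:156200819-156201068, minus strand: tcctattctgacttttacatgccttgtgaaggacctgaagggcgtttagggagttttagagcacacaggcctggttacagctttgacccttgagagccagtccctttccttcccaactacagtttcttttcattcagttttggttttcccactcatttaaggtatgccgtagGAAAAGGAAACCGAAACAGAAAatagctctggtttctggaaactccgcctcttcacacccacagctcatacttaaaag
Stat2, chr10:128270266-128270295, plus strand: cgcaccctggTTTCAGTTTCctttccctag
Ifih1, chr2:62646206-62646233, minus strand: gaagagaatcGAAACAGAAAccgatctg
Ddx58, chr4:40239804-40239833, minus strand: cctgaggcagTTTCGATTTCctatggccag
Irf1, chr11:53769914-53769943, plus strand: acagcctgatTTCCCCGAAatgatgaggcc
Adar, chr3:89730730-89730759, plus strand: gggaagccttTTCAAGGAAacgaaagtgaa
Isg15 held 3 overlapping ISRE matches in one run, which began 78, 72 and 66 bases before the start site. The Stat2 match began 222 bases before the RefSeq start. The matches in Ddx58 and Ifih1 began 2 and 32 bases after the RefSeq start. That of Ifih1 lies upstream of the start of the listed isoform, and so outside the TSS region measured here. The GAS match of Irf1 began 90 bases before its start. The GAS match of Adar lay in the window of a RefSeq start 15696 nt downstream of the listed one. No window of Irf9, Irf3 or Irf7 held either run of letters.

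The genes differed widely in how strongly they were transcribed. Over all 6 libraries the mean gene body value was 48.6 TPM for Irf3 and 29.6 TPM for Irf9, which lay at the 87.9th and 74.5th percentile of all tested genes. Irf1 (12.4 TPM), Stat2 (10.7 TPM) and Adar (8.95 TPM) followed, at the 40.8th, 35.9th and 30.7th percentile. Irf7 (2.20 TPM), Ddx58 (1.75 TPM), Isg15 (1.33 TPM) and Ifih1 (0.615 TPM) lay between the 8.5th and the 0.8th percentile. The lowest library of Irf9, at 24.1 TPM, was above the highest of Irf1, at 18.7 TPM, and the lowest of Adar, at 6.45 TPM, was above the highest of Irf7, at 3.33 TPM. Irf3 and Irf9 overlapped across libraries, as did Irf1, Stat2 and Adar, and as did Irf7, Ddx58 and Isg15. Ifih1 never exceeded 0.74 TPM, below every library of Irf7 and Ddx58, while 2 libraries of Isg15 held no read. In the TSS region the first 5 genes stood in the same order, from 43.2 RPM for Irf3 to 12.4 RPM for Adar, and each overlapped its neighbour. Isg15 (5.78 RPM), Ddx58 (3.71 RPM), Irf7 (3.12 RPM) and Ifih1 (2.40 RPM) followed, with overlap between neighbours as well.

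None of the 9 genes passed an adjusted p of 0.1 between Kmt5b sKO and Ctrl in the TSS region, where 1.66% of 12451 tested genes did, or in the gene body, where 2.99% did. None of the 8 genes with a testable pausing index passed, where 0.0% of 11698 tested genes did. Without adjustment, 3 of the 9 genes had p under 0.05 in the TSS region, while 2 of 9 did so in the gene body and 0 of 8 for the pausing index. Among all tested genes, 1369 of 12451 did so in the TSS region and 1981 of 12451 in the gene body. For the pausing index it was 452 of 11698. The groups did not overlap for 3 of 9 genes in the TSS region (33.3%, against 15.6% of all tested genes) and for 2 of 9 in the gene body (22.2%, against 21.4%). The median log2 fold change of the 9 genes was -0.14 in the TSS region, with 3 positive and 6 negative values, where the median of all tested genes was 0.081. In the gene body it was -0.20 over the 8 genes with a fold, with 3 positive and 5 negative, where that of all tested genes was 0.023. Fold changes are Kmt5b sKO over Ctrl on the log2(value + 0.5) scale, followed by the standard error (SE). In these bulk libraries, fewer transcribing cells and less transcription per cell cannot be told apart.

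**Figure D1:**
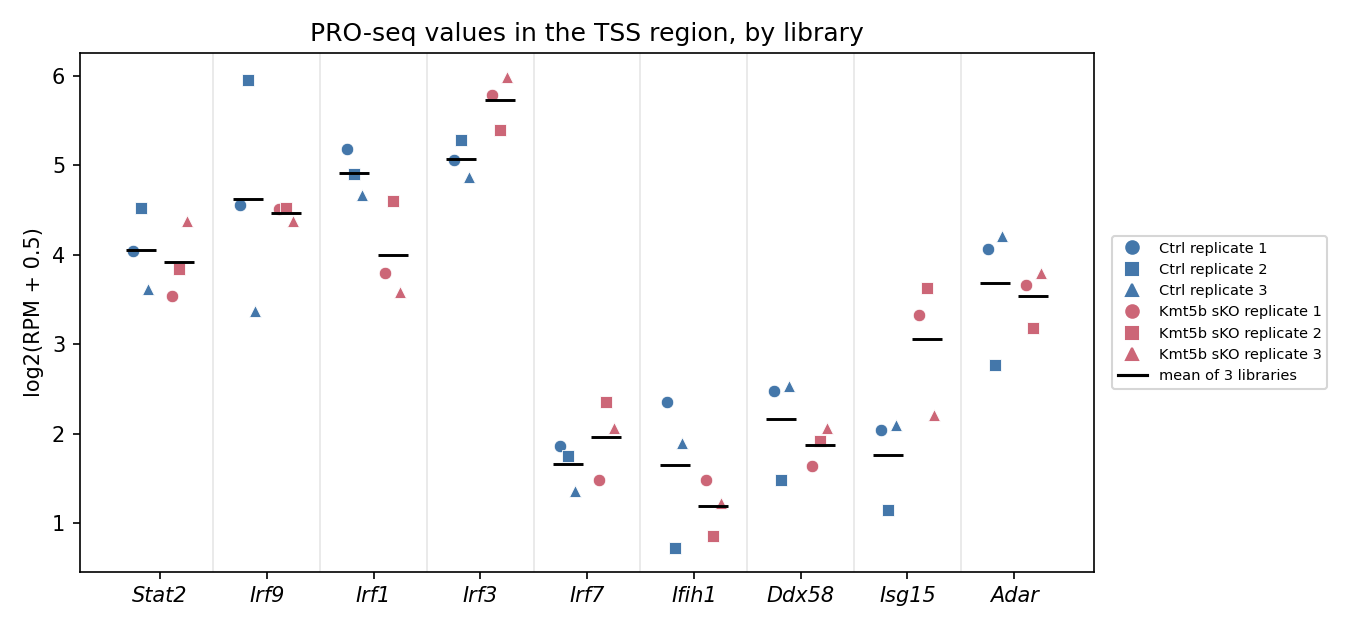
TSS region values of the 9 genes as log2(RPM + 0.5), with 1 point per library (blue, Ctrl; red, Kmt5b sKO; marker shape, replicate number) and black bars for the mean of 3 libraries on that scale. The 3 Kmt5b sKO libraries lie below the 3 Ctrl libraries for Irf1 and above them for Irf3 and Isg15, and the groups overlap for the other 6 genes.

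Stat2 (ENSMUSG00000040033, chr10:128270576-128292849, plus strand, 24 exons), a STAT subunit of ISGF3, had TSS values of 15.98, 22.4 and 11.7 RPM in Ctrl against 11.2, 13.9 and 20.2 RPM in Kmt5b sKO. The gene body held 11.5, 14.3 and 7.58 TPM in Ctrl against 10.2, 8.65 and 11.9 TPM in Kmt5b sKO. The highest and the lowest library of the gene body were both Ctrl, and the groups overlapped in both regions. The log2 fold change was -0.14 (SE 0.34) in the TSS region and -0.08 (SE 0.24) in the gene body (limma, adjusted p = 0.94 and 0.93). The 95% confidence interval in the TSS region ran from -0.85 to 0.58. Both signs turned when the Ctrl replicate 2 library was left out, to 0.09 and 0.12, and the call did not change. Apof lies 423 nt upstream on the same strand, and its gene body held 0 to 3.16 TPM.

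Irf9 (ENSMUSG00000002325, chr14:55603985-55610030, plus strand, 9 exons) encodes the DNA-binding member of ISGF3. Its TSS values were 23.0, 61.5 and 9.85 RPM in Ctrl against 22.3, 22.5 and 20.2 RPM in Kmt5b sKO. The 3 Ctrl libraries spread over 6.24-fold and enclosed all 3 Kmt5b sKO libraries, which lay close together. The TSS log2 fold change of -0.16 (SE 0.43) became 0.51 without Ctrl replicate 2 and -0.79 without Ctrl replicate 3. The gene body was steadier, with 39.1, 31.0 and 31.5 TPM in Ctrl against 25.0, 24.1 and 26.9 TPM in Kmt5b sKO. All 3 Kmt5b sKO libraries were lower than all 3 Ctrl libraries, and the log2 fold change was -0.40 (SE 0.14, 95% confidence interval -0.73 to -0.08). This difference did not pass the adjustment (limma, adjusted p = 0.22). A further RefSeq start of Irf9 lies 594 nt downstream of the listed one, within this gene body, and reads from it were not separated. Rnf31 ends 292 nt upstream on the same strand, and its gene body values were 14.6, 12.1 and 10.4 TPM in Ctrl against 10.95, 11.6 and 12.4 TPM in Kmt5b sKO, which overlapped.

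Irf1 (ENSMUSG00000018899, chr11:53770014-53777323, plus strand, 10 exons), an interferon regulatory factor with the GAS match shown above, had TSS values of 35.8, 29.3 and 25.0 RPM in Ctrl against 13.4, 23.8 and 11.5 RPM in Kmt5b sKO. Every Kmt5b sKO library was below every Ctrl library. The log2 fold change was -0.92 (SE 0.31, 95% confidence interval -1.57 to -0.27), which did not pass the adjustment (limma, adjusted p = 0.20). Leaving out single libraries gave -1.22 to -0.72, and the lowest adjusted p of any alternative was 0.11, without Kmt5b sKO replicate 2. The gene body held 15.04, 18.7 and 10.3 TPM in Ctrl against 9.51, 8.40 and 12.3 TPM in Kmt5b sKO. Here Kmt5b sKO replicate 3 lay above Ctrl replicate 3, and the log2 fold change was -0.50 (SE 0.24, adjusted p = 0.38). Reads from a further RefSeq start of Irf1, 459 nt downstream of the listed one and so within the gene body, were not separated.

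Irf3 (ENSMUSG00000003184, chr7:44997666-45002389, plus strand, 8 exons), a factor activated downstream of the RNA sensors, had the highest values of the 9 genes. Its TSS values were 32.9, 38.5 and 28.6 RPM in Ctrl against 54.7, 41.6 and 63.0 RPM in Kmt5b sKO. All 3 Kmt5b sKO libraries were higher, with a log2 fold change of 0.65 (SE 0.25, 95% confidence interval 0.14 to 1.17), which did not pass the adjustment (limma, adjusted p = 0.28). The gene body held 46.5, 48.2 and 30.1 TPM in Ctrl against 53.7, 47.0 and 66.4 TPM in Kmt5b sKO. Kmt5b sKO replicate 2 lay below Ctrl replicate 2, so the groups overlapped, and the log2 fold change was 0.43 (SE 0.22, adjusted p = 0.40). Irf3 and Bcl2l12 overlap on opposite strands, and reads were counted by strand.

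Irf7 (ENSMUSG00000025498, chr7:141263183-141266481, minus strand, 10 exons), which is itself induced by interferon in many cells, was close to the limit of detection. Its TSS values of 3.15, 2.87 and 2.08 RPM in Ctrl against 2.29, 4.62 and 3.68 RPM in Kmt5b sKO rested on 5 to 13 reads per library. Its gene body values of 1.42, 3.33 and 2.66 TPM in Ctrl against 1.55, 3.16 and 1.09 TPM in Kmt5b sKO rested on 3 to 11 reads. The groups overlapped in both regions, and the log2 fold changes of 0.30 (SE 0.51) and -0.32 (SE 0.38) had opposite signs (limma, adjusted p = 0.90 and 0.76). Cdhr5 ends 2605 nt upstream on the same strand, at 30.6 to 52.4 TPM, which is above every library of Irf7.

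**Figure D2:**
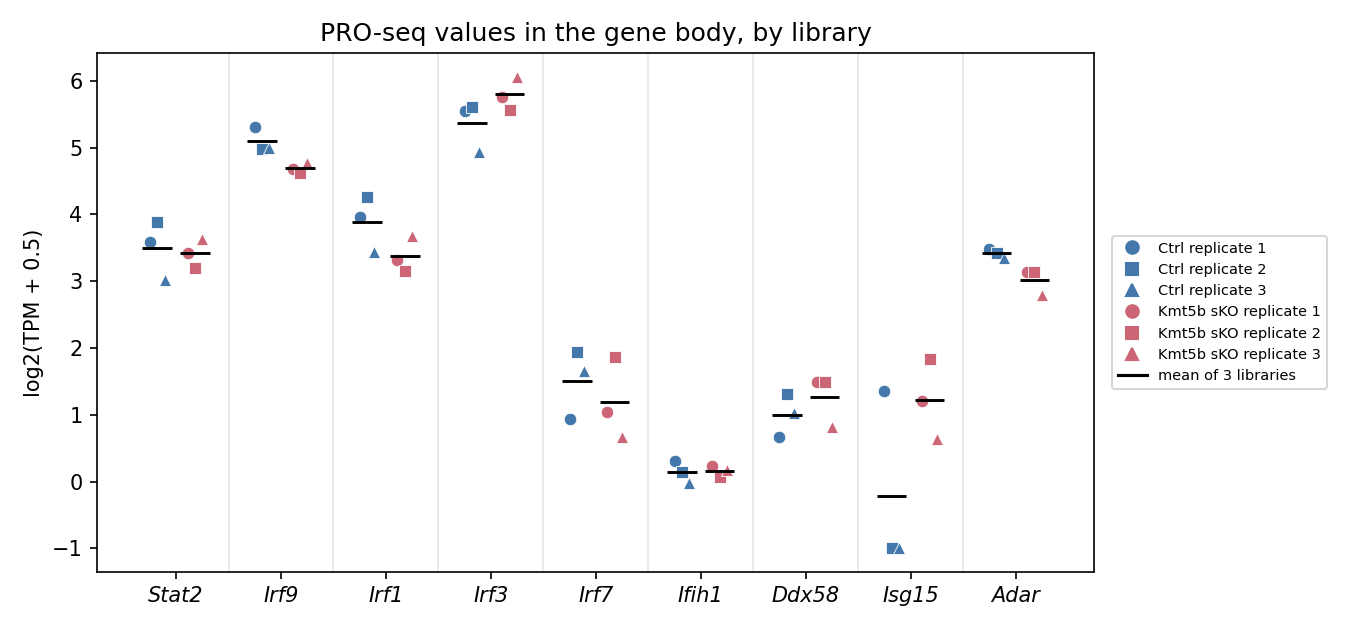
Gene body values of the 9 genes as log2(TPM + 0.5), with points, colours and bars as in the plot of TSS values. Irf9 and Adar are lower in all 3 Kmt5b sKO libraries than in all 3 Ctrl libraries, and the 2 Ctrl points of Isg15 at the bottom are libraries without a read.

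The sensors were transcribed at low levels in both groups. Ifih1 (ENSMUSG00000026896, chr2:62595798-62646211, minus strand, 16 exons) had TSS values of 4.60, 1.15 and 3.22 RPM in Ctrl against 2.29, 1.32 and 1.84 RPM in Kmt5b sKO, from 2 to 19 reads. In the gene body it had 0.74, 0.61 and 0.49 TPM in Ctrl against 0.67, 0.55 and 0.63 TPM in Kmt5b sKO. All 6 gene body values lay within a narrow range, and the log2 fold change was 0.01 (SE 0.23, adjusted p = 0.99). Its TSS value was lower by 0.47 on the log2 scale (log2 fold change -0.47, SE 0.58, adjusted p = 0.85), with overlapping groups. Ddx58 (ENSMUSG00000040296, chr4:40204849-40239828, minus strand, 18 exons) had TSS values of 5.08, 2.30 and 5.30 RPM in Ctrl against 2.62, 3.30 and 3.68 RPM in Kmt5b sKO, from 4 to 28 reads. Its gene body values were 1.09, 1.98 and 1.54 TPM in Ctrl against 2.32, 2.30 and 1.27 TPM in Kmt5b sKO. Both groups overlapped, with log2 fold changes of -0.29 (SE 0.50) in the TSS region and of 0.27 (SE 0.28) in the gene body (limma, adjusted p = 0.90 and 0.73).

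Isg15 (ENSMUSG00000035692, chr4:156199424-156200818, minus strand, 2 exons) encodes a ubiquitin-like protein that is attached to other proteins after interferon. Its TSS values were 3.63, 1.72 and 3.79 RPM in Ctrl against 9.51, 11.9 and 4.14 RPM in Kmt5b sKO. These came from 15, 3 and 20 reads in Ctrl and from 29, 18 and 9 reads in Kmt5b sKO. All 3 Kmt5b sKO libraries were higher, although Kmt5b sKO replicate 3 lay just above the highest Ctrl library. The log2 fold change of 1.29 (SE 0.49, 95% confidence interval 0.26 to 2.32) was the largest of the 9 genes and did not pass the adjustment (limma, adjusted p = 0.29). Leaving out single libraries gave 0.98 to 1.71. The gene body is only 994 nt long and held 3, 0 and 0 reads in Ctrl against 2, 2 and 1 reads in Kmt5b sKO. Its values were 2.06, 0 and 0 TPM in Ctrl against 1.81, 3.07 and 1.05 TPM in Kmt5b sKO. Both groups were at or under 3 reads in every library, so no fold is given, and the difference in the TSS region has no counterpart that could be measured in the body. Of the other genes with an ISRE match, Stat2 had a TSS log2 fold change of -0.14, Ifih1 of -0.47 and Ddx58 of -0.29. The groups overlapped for each of them, and a part of the element in any of these values was not tested.

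Adar (ENSMUSG00000027951, chr3:89715022-89753446, plus strand, 15 exons) had TSS values of 16.2, 6.32 and 18.0 RPM in Ctrl against 12.1, 8.58 and 13.3 RPM in Kmt5b sKO. The groups overlapped, with a log2 fold change of -0.14 (SE 0.40, adjusted p = 0.95). The gene body held 10.7, 10.2 and 9.72 TPM in Ctrl against 8.26, 8.35 and 6.45 TPM in Kmt5b sKO. All 3 Kmt5b sKO libraries were lower, with a log2 fold change of -0.40 (SE 0.16, 95% confidence interval -0.76 to -0.03), which did not pass the adjustment (limma, adjusted p = 0.28). The downstream RefSeq start with the GAS match lies within this gene body, and reads from it were not separated.

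**Figure D3:**
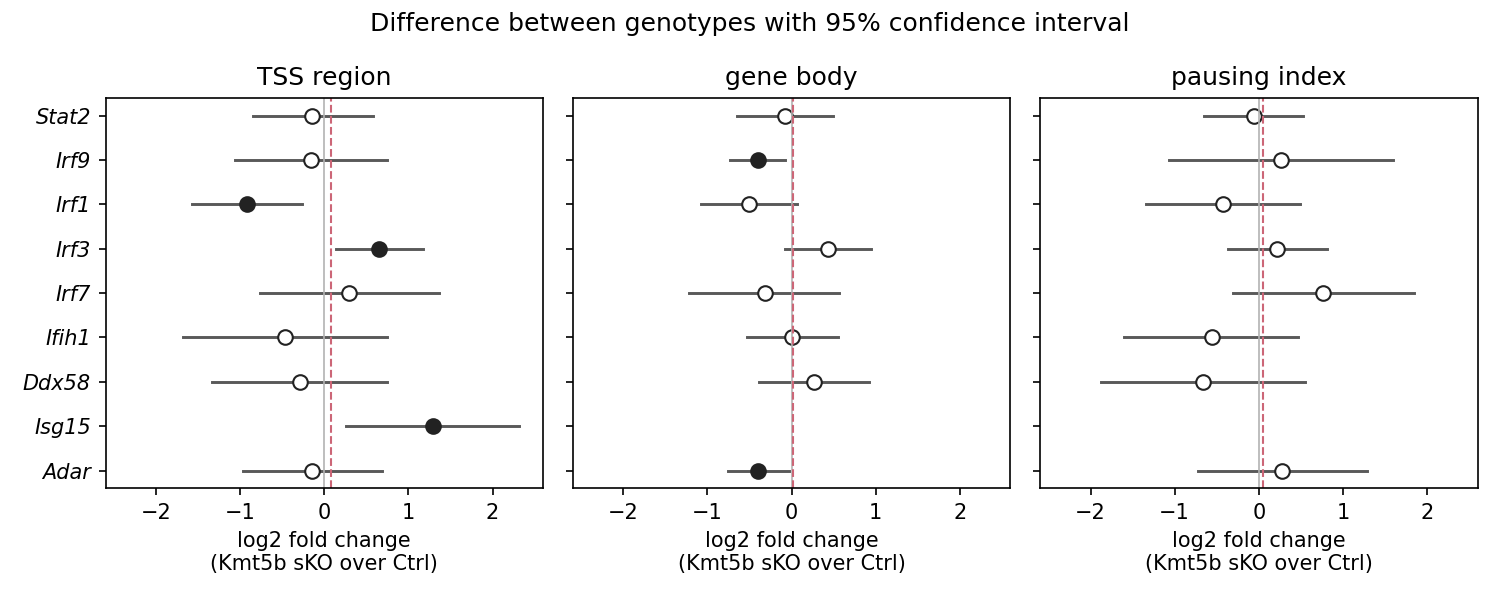
Log2 fold change (Kmt5b sKO over Ctrl) of each gene with its 95% confidence interval from limma, for the TSS region, the gene body and the pausing index. Filled points mark genes whose groups do not overlap, the dashed red line is the median of all tested genes, and Isg15 has no fold in the gene body and no tested pausing index.

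Over the 6 libraries, the mean pausing index of the 8 tested genes ran from 0.885 to 3.9, and no gene passed the threshold between the genotypes. Irf3 and Irf9 had the lowest means over the 6 libraries, with indices of 0.708, 0.799 and 0.950 for Irf3 in Ctrl against 1.02, 0.886 and 0.948 in Kmt5b sKO. Irf9 had 0.588, 1.99 and 0.313 in Ctrl against 0.891, 0.933 and 0.752 in Kmt5b sKO, so that Ctrl again enclosed Kmt5b sKO. The means of both genes lay at the 24.6th and 25.6th percentile of all tested genes. Stat2 had 1.39, 1.57 and 1.55 in Ctrl against 1.09, 1.60 and 1.70 in Kmt5b sKO. Irf1 had 2.38, 1.57 and 2.42 in Ctrl against 1.41, 2.83 and 0.936 in Kmt5b sKO, and Adar had 1.52, 0.619 and 1.85 in Ctrl against 1.47, 1.03 and 2.07 in Kmt5b sKO. These 3 genes lay between Irf3 and the sensors. Ifih1 had the highest mean of the 8 tested genes, at 6.22, 1.89 and 6.57 in Ctrl against 3.42, 2.40 and 2.92 in Kmt5b sKO. Ddx58 had 4.66, 1.16 and 3.44 in Ctrl against 1.13, 1.43 and 2.90 in Kmt5b sKO, and Irf7 had 2.22, 0.862 and 0.782 in Ctrl against 1.48, 1.46 and 3.38 in Kmt5b sKO. For both, as for Ifih1, the index of a library rests on few TSS reads. The log2 fold changes ran from -0.66 for Ddx58 to 0.76 for Irf7, with 4 positive and 4 negative. The groups overlapped for all 8 tested genes, where 9.02% of all tested genes did not overlap, and every adjusted p was 1.0 (limma).

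**Figure D4:**
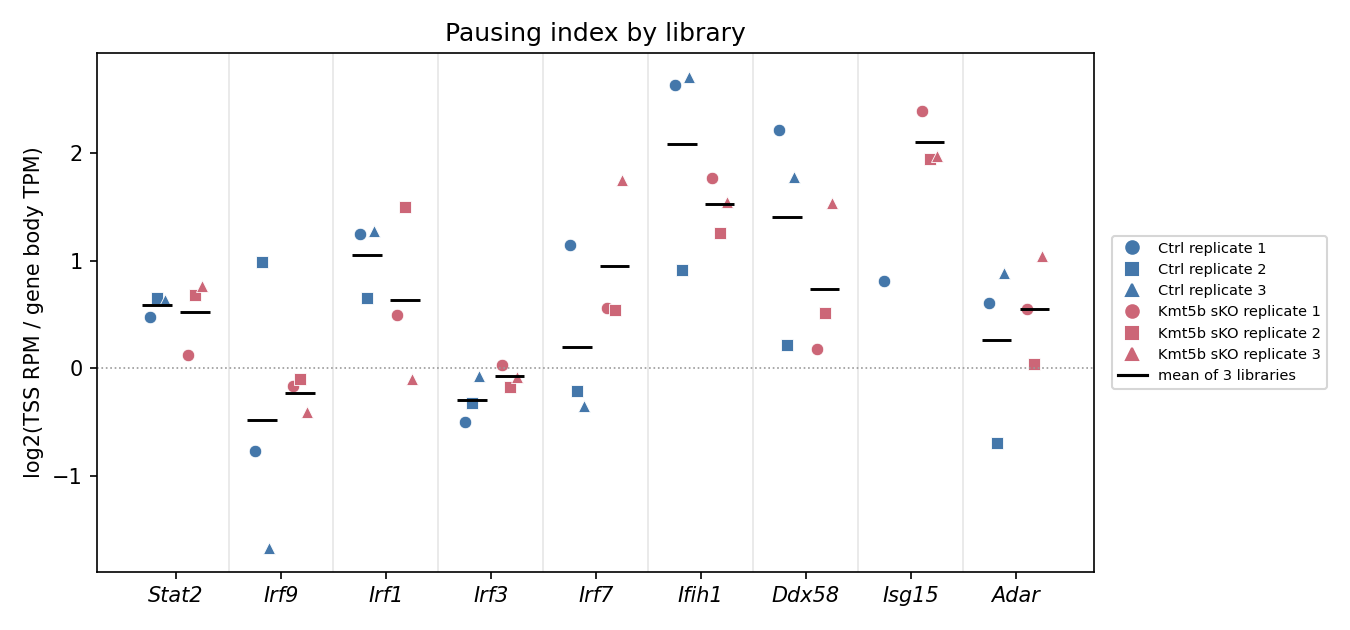
Pausing index of the 9 genes on a log2 scale, with points, colours and bars as in the plot of TSS values and the dotted line at an index of 1.0. The groups overlap for all 8 tested genes, and Isg15 shows the 4 libraries with a gene body read, each from 1 to 3 such reads.

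The rest of the pathway was read from lists of 121 symbols, of which 96 are among the listed genes and 83 passed the filter on low values. In the TSS region 1 of the 83 genes passed an adjusted p of 0.1 (1.2%, against 1.66% of all tested genes). In the gene body 1 gene was higher and 1 lower (2.41%, against 2.99%). The groups did not overlap for 8 of the 83 genes in the TSS region (9.64%, against 15.6% of all tested genes) and for 24 in the gene body (28.9%, against 21.4%). The median gene body log2 fold change was -0.03, with 36 positive and 47 negative, where the median of all tested genes was 0.023. In the TSS region it was 0.05 over the 81 genes with a fold, with 41 positive and 40 negative. The median of all tested genes there was 0.081.

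Tor3a, a torsin family ATPase gene that interferon induces, rose in both regions. Its TSS values were 60.3, 94.2 and 77.5 RPM in Ctrl against 163.6, 124.8 and 210.2 RPM in Kmt5b sKO, a log2 fold change of 1.09 (SE 0.24, limma, adjusted p = 0.045). In the gene body it had 37.8, 50.2 and 39.3 TPM in Ctrl against 74.5, 62.3 and 87.2 TPM in Kmt5b sKO, a log2 fold change of 0.81 (SE 0.17, adjusted p = 0.089). Without Ctrl replicate 1, Kmt5b sKO replicate 1 or Kmt5b sKO replicate 3 it passed in neither region, with adjusted p of 0.17 to 0.29 in the TSS region. Without Kmt5b sKO replicate 2 it passed in the TSS region but not in the gene body (adjusted p = 0.16), and the log2 fold change stayed between 0.69 and 1.28 in these fits. The TSS call was also lost with no filter on low values (adjusted p = 0.34), and both calls were lost in limma without a trend (0.26 and 0.10). It was the only one of 17 tested interferon-stimulated effectors that passed. The others included Bst2, which encodes tetherin, at 1.71, 2.82 and 1.75 TPM in Ctrl against 0.64, 1.64 and 0.37 TPM in Kmt5b sKO, from 1 to 9 gene body reads. Gene body log2 fold changes of the 17 effectors were positive for 10 and negative for 7, with a median of 0.04. Of the 36 effectors, 13 are not among the listed genes, and these include Ifit1, Mx1, Mx2, Oas1a, Oas2 and Oas3. Of 6 interferon genes, Ifng alone is listed, and it did not pass the filter.

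Rnaseh2b, a subunit of the RNase H2 enzyme that removes RNA from RNA-DNA hybrids, fell in the gene body. Its gene body values were 9.77, 9.06 and 9.34 TPM in Ctrl against 4.86, 5.54 and 5.28 TPM in Kmt5b sKO, a log2 fold change of -0.79 (SE 0.14, limma, adjusted p = 0.069). In its TSS region the log2 fold change was -0.31 (SE 0.30, adjusted p = 0.80). The gene body call held without Ctrl replicate 3 and was lost without any other single library, where the log2 fold change was -0.83 to -0.74 and the adjusted p 0.11 to 0.23. It held in edgeR (adjusted p = 0.024) and DESeq2 (3.5e-05) and was lost in limma with a replicate block (0.26). In the same list of 9 tested DNA sensing genes, Mb21d1, which encodes the DNA sensor cGAS, had gene body values of 6.74, 7.73 and 9.06 TPM in Ctrl against 3.08, 5.10 and 3.59 TPM in Kmt5b sKO. These groups did not overlap, and the log2 fold change of -0.93 (SE 0.22) lay just outside the threshold (adjusted p = 0.10). It passed in edgeR (adjusted p = 0.092), in DESeq2 (0.015), and in limma with a pseudocount of 1 (0.098) or without a trend (0.093). It did not pass when any single library was left out (0.12 to 0.30). Banf1, which encodes a DNA-binding protein that shields DNA from cGAS, held 48.2 to 104.9 TPM in Ctrl against 68.2 to 82.7 TPM in Kmt5b sKO.

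No other gene of the lists passed in either region in the main limma fit. In the gene body edgeR called 6 of the 83 genes, 3 higher and 3 lower, where it called 748 of all 12451 tested genes. DESeq2 called 8 of the 83, 4 higher and 4 lower, where it called 1296 of 12451. Ddx60, Herc6 and Ifit2 were among the calls of both. All 8 interferon receptor and JAK kinase genes had negative gene body log2 fold changes, with a median of -0.05. In the TSS region 4 of them were positive and 4 negative, with a median of 0.01. The largest gene body change was that of Jak1 at -0.28 (SE 0.16, adjusted p = 0.49), and Ifnar1, a subunit of the type I interferon receptor, stood at -0.05 (SE 0.16). Among 7 STAT and IRF factors the gene body median was 0.01. Irf2bp2, a corepressor partner of IRF2, had the highest gene body level of that list and a log2 fold change of 0.43 (SE 0.24, adjusted p = 0.46).

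Of 20 further genes of RNA sensing, 12 had positive and 8 negative gene body log2 fold changes, with a median of 0.03. Ddx60, a helicase gene linked to RIG-I signalling, had 0.96, 0.83 and 0.56 TPM in Ctrl against 1.61, 1.74 and 1.29 TPM in Kmt5b sKO (log2 fold change 0.68, SE 0.23, adjusted p = 0.22), which did not overlap. G3bp1, which encodes a stress granule protein, was at 77.6 to 83.2 TPM in Ctrl against 76.9 to 77.2 TPM in Kmt5b sKO. All 4 tested genes of ISG15 conjugation were negative, with a median of -0.57. Their lowest was the conjugating enzyme Ube2l6, with 2.12, 1.44 and 2.49 TPM in Ctrl against 1.07, 0.56 and 1.15 TPM in Kmt5b sKO (log2 fold change -0.82, SE 0.28, adjusted p = 0.21). Trim25, a ubiquitin ligase gene that also acts on RIG-I, was at -0.20 (SE 0.20, adjusted p = 0.71).

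Among 7 negative regulators the median was -0.03. Socs1, an inhibitor of JAK kinases, had 237.9, 140.2 and 104.9 TPM in Ctrl against 88.7, 103.5 and 120.0 TPM in Kmt5b sKO, with overlapping groups (log2 fold change -0.55, SE 0.29, adjusted p = 0.43). The 3 tested editing enzymes besides Adar were all negative in the gene body, with a median of -0.34, among them Adat1 at -0.34 (SE 0.14, adjusted p = 0.31) and Adat2 at -0.42 (SE 0.21, adjusted p = 0.41), which act on transfer RNA. In the TSS region 1 of the 3 was positive and 2 were negative, with a median of -0.25. Among 9 class I antigen presentation genes the gene body median was -0.06. Of its members, the immunoproteasome gene Psmb10, with the highest gene body level, was at 0.19 (SE 0.32, adjusted p = 0.83) and Psmb9, with the largest fold change, at -0.97 (SE 0.49, adjusted p = 0.40). Psmb9 had 0 gene body reads in Kmt5b sKO replicate 2, and its log2 fold change was -0.37 without that library.

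**Figure D5:**
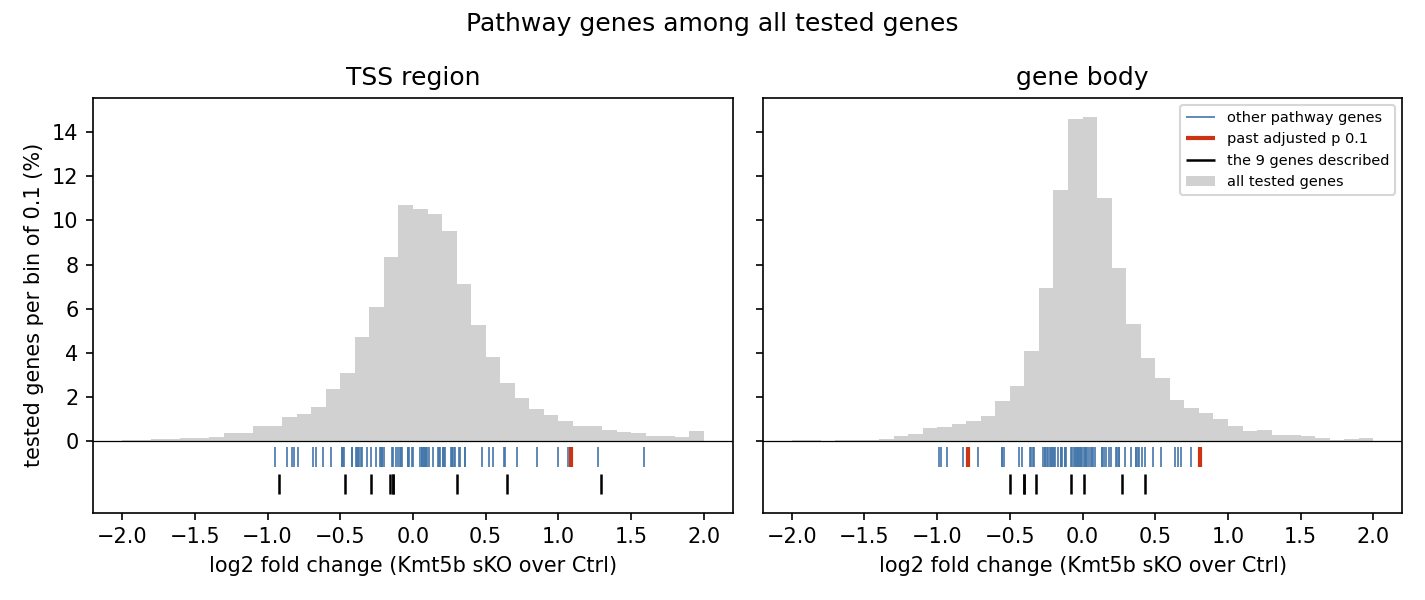
Histograms of the log2 fold change (Kmt5b sKO over Ctrl) of all 12451 tested genes in the TSS region and the gene body, in bins of 0.1 and with values beyond 2 in the end bins. Ticks below mark the fitted values of the 83 tested pathway genes, with those past adjusted p 0.1 in red. They also mark the 9 genes described, except Isg15 in the gene body, and the genes marked lie within the spread of all genes.

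Over the 6 libraries, the gene body profiles most like that of Stat2 were those of Per2, Acap3 and Slc6a6, with root mean square differences of 0.043, 0.050 and 0.055 on the log2 scale among 5671 genes compared, where the Stat2 profile itself had an SD of 0.314. Like Stat2, all 3 were highest in Ctrl replicate 2 and lowest in Ctrl replicate 3, which follows from how they were picked. For Irf7 they were Pax3, Sgk3 and Loxl3, at 0.208, 0.208 and 0.213 among 3507 genes, where the SD was 0.537. The Isg15 profile rests on at most 3 reads per library, and no like profiles are given for it.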

How the data were processed

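PRO-seq was made from MuSCs of 3 Ctrl and 3 Kmt5b sKO samples, grouped by the genotype label. Per the labels and methods, the authors used FastQC 0.11.8, Trimmomatic 0.39, STAR 2.6.1d on GRCm38 (1 random position for reads with several) and Picard 2.18.16 to remove duplicates, counted sense-strand reads per isoform, and listed 1 isoform per gene. The TSS columns that the authors deposited are headed TPM and equal RPM, because all these regions have the same length. The gene body values they deposited are TPM. The deposited ratio of both is the pausing index. Read numbers per region were worked out from the smallest step between values, and all low values checked were whole within 0.1 reads.

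Autosomal genes whose mean reached 0.5 in the TSS region and in the body (12451) were tested as log2(value + 0.5) with limma 3.58.1 in R 4.3.3 (lmFit and eBayes with a trend, genotype as the only term), with Benjamini-Hochberg adjustment over all tested genes and a threshold of 0.1. The pausing index was tested as a log2 ratio without pseudocount for 11698 genes above 0 throughout. A group with at most 3 reads in every library was taken as at the floor. Named genes are all 9 genes and, per pathway list, those past the threshold, the highest in gene body level and the largest gene body fold change, with the nearest upstream gene where it lies close and the 3 profiles most like Stat2 and Irf7. A few genes picked by it are not reported here. The genes, lists and tests were chosen with earlier results of these data known. Alternatives were other pseudocounts, filters, scalings and thresholds, eBayes without a trend, X and Y included, a replicate block, each library left out, and edgeR 4.0.16 and DESeq2 1.42.0 on the recovered reads. The code was tested on simulated data.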

Additional observations from a re-analysis of the deposited data

How the results depend on the processing

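No alternative brought any of the 9 genes past its threshold in any measure. Over all genes, the count of 207 called in the TSS region (56.0% higher) became 64 at an adjusted p of 0.05, 0 (1448 at an unadjusted p under 0.05) with no filter on low values, 0 (1292) in limma without a trend, and 226 (46.0% higher) with libraries centred on their median. Leaving out 1 library gave 1 to 408, the smallest count when Ctrl replicate 1 was dropped and the largest when Ctrl replicate 2 was, with 16, 132 and 46 when Kmt5b sKO replicate 1, 2 or 3 was dropped. The count of 372 in the gene body became 1 at an adjusted p of 0.05, 748 in edgeR and 1296 in DESeq2. Leaving out 1 library gave 0 to 836, with 836 without Ctrl replicate 3 and 0 without Ctrl replicate 1 (1478 at an unadjusted p under 0.05) or any one of the Kmt5b sKO libraries (1374 to 1706). The cause of these changes was not tested. The pausing index gave 0 calls throughout (356 to 624 at an unadjusted p under 0.05). Same-numbered libraries did not deviate together (correlations of -0.034, -0.133 and -0.163 in the TSS region), and with a replicate block limma called 0 TSS regions (1141 at an unadjusted p under 0.05) and 0 gene bodies (1441).

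Of the fold changes of the 9 genes, 370 kept their sign and side of the threshold under an alternative and 16 turned in sign, none of them called. The gene body value of Ifih1 turned to -0.01 in edgeR and -0.02 in DESeq2. Leaving out 1 library moved it from -0.07 to its highest of 0.09. The other turns came from leaving out 1 library. These gave ranges of -0.36 to 0.09 for the Stat2 TSS region, -0.79 to 0.51 for the Irf9 TSS region, -0.59 to 0.13 for the Adar TSS region, -0.32 to 0.12 for the Stat2 gene body, -0.19 to 0.14 for the Stat2 pausing index, -0.34 to 1.0 for the Irf9 pausing index and -0.20 to 0.59 for the Adar pausing index. Of the pathway genes named, Ifnar1 (-0.18 to 0.06), Banf1 (-0.43 to 0.13) and Psmb10 (-0.12 to 0.53) also turned in the gene body when 1 library was left out. Among the 83 pathway genes the replicate block left 0 calls (adjusted p of 0.16 and 0.29 for Tor3a in the TSS region and gene body, 0.26 for the Rnaseh2b gene body and 0.26 for that of Mb21d1). Low read numbers limit Irf7, Ifih1, Ddx58 and Isg15 most.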
